A study of Mus musculus with 4 samples.

Results

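The genes described here encode 7 cytokines that CD4 T cells secrete and that lie outside the Th2 cytokine locus: Il2, Il9, Il21, Il17a, Il17f, Il22 and Ifng. They were taken as named, as the cytokines of Th1, Th9, Th17, Th22 and follicular helper T cells together with Il2, and make up 7 of the 18749 genes that could be named on the array. They were read by 10 probes: 2 each for Il2, Il22 and Ifng, and 1 each for the others. The measurements came from 4 Agilent arrays of the whole mouse genome in 1 colour, with 1 array per condition, so no difference has a replicate check and no test was made. A difference is therefore called by its size, at least 2-fold, which is 1 on the log2 scale.

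The cells were naive CD4 T cells (CD44 low, CD62L high, CD25 negative) from the spleen of mice on a C57BL/6J background, labelled female, with no age in the labels. The group called Bach2 KO carried Bach2flox/flox alleles and the CD4-Cre transgene (TG), whose promoter is that of Cd4, so that deletion is directed to the T cell lineage. The labels call the other group Bach2 WT and give no Cre status for it. All cells were stimulated for 2 days with 3 μg per ml of an immobilized mAb against TCR-β and 1 μg per ml of one against CD28 and kept for 3 more days with IL-2 (2.5 ng per ml). One array of each genotype read these day 5 cells. The other read cells that were then re-stimulated for 4 h with immobilized anti-TCR-β mAb and no added IL-2. The arrays compare the genotypes in each state and the states in each genotype.

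Effector CD4 T cells fall into types that are known by the cytokines they make when the T cell receptor is engaged again. Th1 cells make IFN-γ under the transcription factor T-bet, Th17 cells make IL-17A, IL-17F, IL-21 and IL-22, Th9 cells make IL-9, and IL-2 is made early by most newly activated cells as a growth factor for T cells. Bach2 is a transcriptional repressor that binds DNA at elements like those of AP-1, and AP-1, NFAT and their partners drive much of the cytokine transcription that follows engagement of the receptor.

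The values are scanner signals in intensity units, and differences are log2 values after the 75th percentile of each array was subtracted. The arrays gave 53.6% to 54.0% of 41173 probes well above background by the scanner's own flag, with 0 saturated spots, and 10810 genes passed that flag on all 4 arrays. The lowest signal well above background, called the floor here, was between 14.5 and 17.2, and a value that missed the flag was raised to its array's floor and gave only a bound. Array number limits the precision, and the spread available is that between different probes of one gene, with a median SD of 0.0885 on the log2 scale for the genotype difference on day 5 and 0.110 after re-stimulation. Across all genes the median difference was -0.0044 and 0.0161. All 7 T cell identity genes were well above background on every array, while the Bach2 probe read 2932, 2633, 3310 and 3080 on the WT and KO arrays of day 5 and the WT and KO arrays of re-stimulated cells and so did not separate the labels. Whether this probe lies within the deleted part of the gene is not known here, so it checks the labels in neither direction. Cells are therefore called labelled KO.

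The members lie in 3 small neighbourhoods and 1 separate place. In the RefSeq gene order Il2 and Il21 were neighbouring protein-coding genes on chromosome 3, Il17a and Il17f on chromosome 1, and Il22 and Ifng on chromosome 10 were separated by 1 gene, Iltifb, a near-identical copy of Il22 for which no probe was named here. Il9 lay alone on chromosome 13. The 250 bases before the annotated start are shown for 2 cytokines that were high after re-stimulation in both genotypes (Il2 and Ifng) and for Il21, Il9 and Il17a, which stood higher in re-stimulated cells labelled KO, as did Il22, which is not shown and had no AP-1 motif. Each is 5′ to 3′ on the gene's own strand, from the RefSeq promoter table of GRCm38.p6. Capitals mark the AP-1 motif TGANTCA and the NFAT core GGAAA, which reads TTTCC on the other strand.
Il2 (chr3:37125955-37126204, minus strand): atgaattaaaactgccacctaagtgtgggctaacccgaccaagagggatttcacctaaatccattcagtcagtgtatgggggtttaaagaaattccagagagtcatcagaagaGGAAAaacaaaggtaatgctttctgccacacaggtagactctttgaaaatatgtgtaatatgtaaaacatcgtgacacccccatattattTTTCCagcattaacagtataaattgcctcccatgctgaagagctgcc
Ifng (chr10:118440796-118441045, plus strand): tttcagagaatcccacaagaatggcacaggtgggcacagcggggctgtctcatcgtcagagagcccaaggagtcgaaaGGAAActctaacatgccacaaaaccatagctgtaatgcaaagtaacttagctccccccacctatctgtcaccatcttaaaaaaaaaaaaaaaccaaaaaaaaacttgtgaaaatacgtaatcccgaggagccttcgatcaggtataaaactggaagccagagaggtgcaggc
Il21 (chr3:37232637-37232886, minus strand): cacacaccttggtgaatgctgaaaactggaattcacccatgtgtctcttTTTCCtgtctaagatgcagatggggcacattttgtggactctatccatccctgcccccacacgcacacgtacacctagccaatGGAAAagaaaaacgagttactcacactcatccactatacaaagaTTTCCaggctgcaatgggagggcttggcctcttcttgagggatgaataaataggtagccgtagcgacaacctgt
Il9 (chr13:56482258-56482507, minus strand): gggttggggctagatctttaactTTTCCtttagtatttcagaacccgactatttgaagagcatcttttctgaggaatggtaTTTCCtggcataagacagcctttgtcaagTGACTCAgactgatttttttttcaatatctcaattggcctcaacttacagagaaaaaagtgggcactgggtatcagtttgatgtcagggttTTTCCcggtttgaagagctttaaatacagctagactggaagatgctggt
Il17a (chr1:20730655-20730904, plus strand): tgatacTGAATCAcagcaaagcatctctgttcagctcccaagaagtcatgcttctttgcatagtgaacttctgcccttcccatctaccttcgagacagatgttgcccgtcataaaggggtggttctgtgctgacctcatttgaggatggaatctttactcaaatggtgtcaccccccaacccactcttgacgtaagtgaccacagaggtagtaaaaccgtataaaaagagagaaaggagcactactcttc
The AP-1 motif occurred in 6.75% of 32851 such windows, and among the members Il9 had it at -140 to -134 and Il17a at -244 to -238, counted from the start. The NFAT core, short enough to be in 55.6% of windows, occurred 2 times for Il2, 3 times each for Il9 and Il21, 1 time for Ifng and not for Il17a. The STAT element TTCNNNGAA, in 7.02% of windows, was found for Ifng at its upstream edge, and the box TATAAA, in 12.4%, lay close to the start of Il2, Il17a, Il17f and Ifng. All motifs were searched on both strands, and the AP-1 and NFAT motifs printed in capitals do not overlap. A match describes the letters and does not show a bound site.

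On day 5, before re-stimulation, most of these cytokine genes were near or below background. The number of members well above background was 3 on the WT array (Il2, Il17f and Ifng) and 1 on the KO array (Ifng). After 4 h of re-stimulation it was 5 on the WT array, where Il9 and Il17a were the exceptions, and 7 on the KO array. Across genotypes on day 5, 3 members could be compared and Ifng was the 1 member higher by at least 2-fold in the cells labelled KO, against 5.27% of 12105 genes tested. No member was lower by 2-fold, against 2.83% of genes. Il2 and Il17f entered this comparison through the WT array alone, so the filter fixed their direction. After re-stimulation 4 of the 7 members (Il9, Il21, Il17a and Il22) were higher by at least 2-fold in the cells labelled KO, against 5.17% of 12341 genes, and 0 were lower, against 3.86%. Il9 and Il17a could be compared after re-stimulation solely because they were well above background on the KO array, so for them a higher value there follows from the filter and not from the data. Il21 and Il22 passed on both arrays, and with both required they were the 2 members higher by 2-fold.

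**Figure D1:**
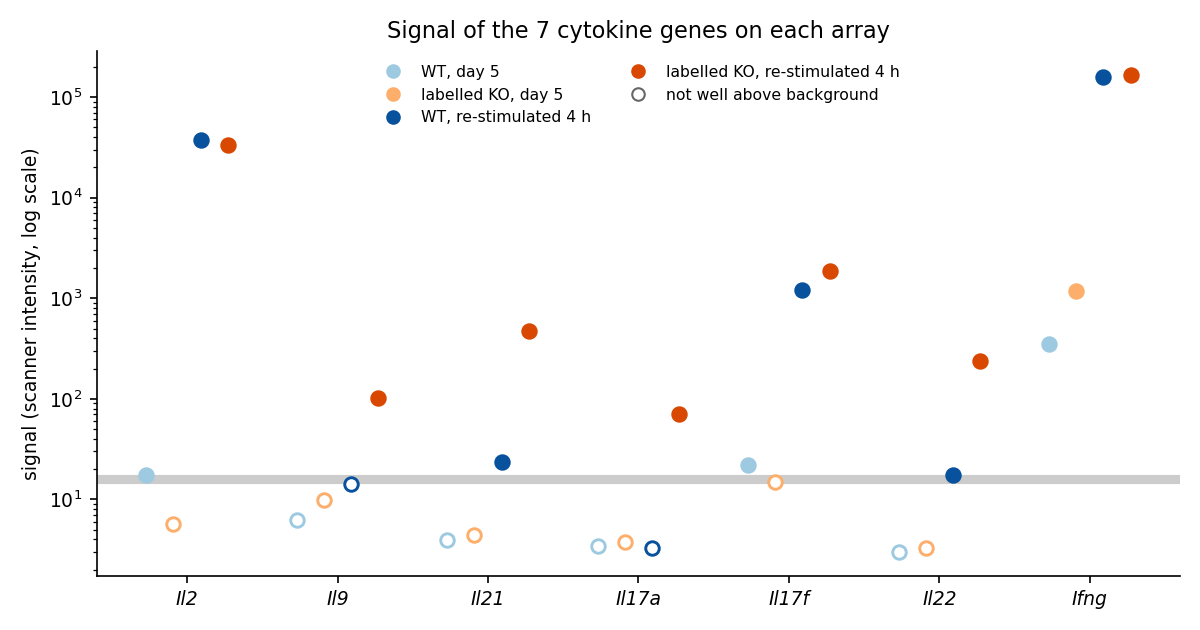
Signal of each cytokine gene (scanner intensity, log axis) on the 4 arrays, 1 point per array; open points were not well above background and the grey band spans the floors of the arrays, 14.5 to 17.2. Il2, Il17f and Ifng are high on both re-stimulated arrays, while Il9, Il21, Il17a and Il22 are high on the re-stimulated KO array and near or below the band on the others. Points of different genes come from different probes and their heights are not comparable.

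Il2 encodes the T cell growth factor. Its probe, printed in 10 spots per array, gave 17.5 on the WT array and 5.72 on the KO array of day 5, and 37530 and 33743 on the re-stimulated WT and KO arrays. The day 5 arrays sat at the floor, with the WT value just above it and the KO value not well above background, and both re-stimulated arrays lay far above them. The spots ranged from 35509 to 38482 on the re-stimulated WT array and from 30534 to 35747 on the re-stimulated KO array, and after scaling to the 75th percentile the ranges did not overlap. The difference between genotypes after re-stimulation was -0.33 on the log2 scale (1.26-fold lower in the cells labelled KO), and the other Il2 probe, at 5633 and 5293, gave -0.26. Both exceed the median spread between probes but stay well under 2-fold. After re-stimulation Il2 was higher by 11.54 on the log2 scale in WT cells, the 4th largest difference of 12244 genes. In cells labelled KO the bound was 2475-fold, the 3rd largest of 12282. The WT figure of 2987-fold rests on a day 5 signal barely over the floor: 6 of the 8 spots kept there were well above background, from 15.6 to 19.4, and of the 2 spots left out as uneven or as outliers the brighter read 61.1. In the cells labelled KO 0 of 9 spots kept passed. The day 5 genotypes therefore differ only by a bound of 1.04-fold.

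Ifng encodes IFN-γ, the cytokine that defines Th1 cells. Its value probe read 349.9 on the WT array and 1175 on the KO array of day 5, and 158630 and 167600 after re-stimulation. It was the 1 member well above background on all 4 arrays. On day 5 the cells labelled KO were higher by 1.75 on the log2 scale (3.37-fold), the 249th highest of 12105 genes. The second probe, with 10 spots per array, gave 203.9 and 692.5 on day 5, a difference of 1.77, and its spots did not overlap, at 184.8 to 235.9 on the WT array and 674 to 733.9 on the KO array. Spots of one array share one RNA sample and show technical spread only. After re-stimulation the genotypes differed by -0.09 on the value probe, within the median spread between probes. The second probe read 176620 and 248920, a difference of 0.32, with spots from 164010 to 203370 and from 220540 to 290730, ranges that overlap once scaled to the 75th percentile. The probes thus disagree in sign after re-stimulation and neither reaches 2-fold. The sign of the value probe itself turns with quantile normalization alone (0.06), normexp followed by quantile normalization (0.13) and scaling to Cd3e (0.0024).

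Ifng was higher after re-stimulation in both genotypes, from unequal starting levels. The difference was 9.30 on the log2 scale in WT cells (632.5-fold, 12th of 12244) and 7.46 in cells labelled KO (175.6-fold, 21st of 12282). The latter was smaller by 1.85 on the log2 scale, the 56th lowest of the 10810 genes measured on all 4 arrays, of which 3.0% were lower by at least 2-fold. On the second probe the 2 differences were 10.24 and 8.79, and the gap was 1.45. This gap is the day 5 genotype difference subtracted from the later one, and so is not a further result. Fewer cells that make a transcript and less of it per cell cannot be told apart in these bulk samples, for this gene or any other here.

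Genes that IFN-γ is known to induce were higher alongside Ifng on day 5. Of 14 listed IFN-γ target genes 13 were on the array, and 10 were measured in both genotypes on day 5. All 10 were higher in the cells labelled KO, against 49.5% of all genes, and 4 by at least 2-fold, against 5.27%. Their median was 0.93. Cxcl10, a chemokine for activated T cells, read 22.6 and 188 on the WT and KO arrays, a difference of 3.06. Irgm1, a GTPase of cell-autonomous defence, differed by 1.72, and the guanylate-binding protein gene Gbp2 by 1.66. After re-stimulation 10 of 12 measured targets were lower in the cells labelled KO and 2 were higher, where 51.9% of all genes were higher. By at least 2-fold 1 target was lower, against 3.86% of all genes, and 1 was higher, against 5.17%. The median of the targets was -0.36. The transcription factor gene Irf1 was lower by 1.08, at 26456 against 14158, and Gbp2 gave -0.92. The chemokine gene Cxcl9 was higher there, by 1.20, at 41.3 against 106.7. Each of the 10 targets measured in both states was higher on day 5 and lower after re-stimulation in the cells labelled KO, under every scaling tried. The change of the median between states was not tested.

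On re-stimulation in WT cells 8 of 12 targets compared were higher by at least 2-fold, against 13.3% of all genes, with a median of 1.31. Cxcl9 and Ido1 missed the flag on both day 5 arrays, so the filter fixed their direction in both genotypes. In cells labelled KO 4 were higher by 2-fold, against 12.5% of all genes, and 1 lower, against 13.1%. The median was 0.18, a sign that turns with scaling to the array median (-0.08) and with both arrays required above background (-0.23). For Cxcl10 the difference on re-stimulation was 7.62 in WT cells against 4.17 in the other genotype.

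**Figure D2:**
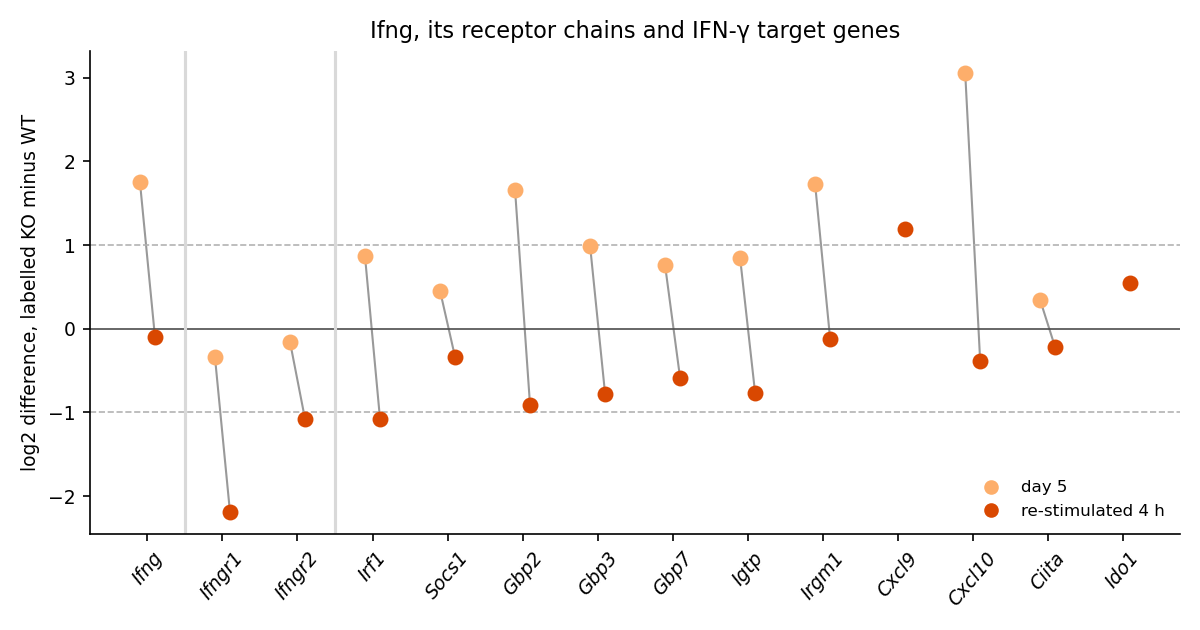
Difference between cells labelled KO and WT (log2 of scaled signals) for Ifng, its receptor chains and IFN-γ target genes, on day 5 and after 4 h of re-stimulation, 1 array per condition; lines join the points of one gene and dashed lines mark 2-fold. Ifng and each target drawn in both states lie above 0 on day 5 and below 0 after re-stimulation, and both receptor chains lie below the 2-fold line after re-stimulation, at -2.19 and -1.08. The other Ifng probe, not drawn, was above 0 in both states.

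Among the receptors of the 7 cytokines, the 2 chains for IFN-γ differed between genotypes. Of 14 receptor genes 9 could be compared between genotypes in each state. On day 5 none differed by 2-fold, against 5.27% of all genes higher and 2.83% lower. After re-stimulation 0 were higher, against 5.17% of all genes, and these 2 were lower, against 3.86%. Ifngr2 was just past 2-fold and falls under it with scaling to Cd3e. Ifngr1, the ligand-binding chain, read 52070, 40942, 21562 and 5336 in the order WT day 5, KO day 5, WT re-stimulated and KO re-stimulated. It was lower by 2.19 on the log2 scale in re-stimulated cells labelled KO. Ifngr2, the signalling chain, read 1074, 960, 748 and 401 in the same order and was lower there by 1.08. Il2ra, the α chain of the IL-2 receptor, gave a difference of 0.73 after re-stimulation. Il10rb, a chain shared by the IL-22 and IL-10 receptors, gave -1.05 on re-stimulation in WT cells and -1.45 in the other genotype. Il9r, Il17rb, Il22ra1 and Il22ra2 stayed below the background flag throughout.

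Targets of IL-2 signalling through STAT5 showed no common direction. All 8 listed genes were measured on all 4 arrays. On day 5 there were 4 above 0 and 4 below, and the 1 gene past 2-fold was Prf1, which encodes the pore-forming protein perforin, at 2.32. After re-stimulation Prf1 (1.66) and Osm (1.06), a cytokine gene, were higher by 2-fold in the cells labelled KO, and the median was -0.34. Bcl2, a survival gene, gave -0.99. Of all genes 5.27% were higher by 2-fold on day 5 and 5.17% after re-stimulation.

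Il21 encodes a cytokine of follicular helper and Th17 cells that acts on B cells. It read 3.91 and 4.45 on the WT and KO arrays of day 5, neither well above background, and 23.4 and 469.5 after re-stimulation. The re-stimulated KO array thus stood alone, and the re-stimulated WT array lay just above the floor. The difference after re-stimulation was 4.15 on the log2 scale (17.8-fold), the 25th highest of 12341 genes. Both arrays passed the flag, so this is a measured difference and not a bound. On re-stimulation Il21 was at least 2.16-fold higher in WT cells and at least 34.4-fold higher in cells labelled KO. With normexp and quantile normalization the genotype difference came to 2.37 on the log2 scale. The WT bound falls under 2-fold when the arrays are scaled to the median (0.81 on the log2 scale) or quantile normalized (0.73). It also does so with normexp and quantile normalization (0.24).

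Il22 encodes a cytokine that acts on epithelial cells. Its value probe gave 3.01 and 3.32 on day 5, not well above background, and 17.3 and 237.6 on the re-stimulated WT and KO arrays. The pattern over the arrays was that of Il21, with the WT value at the floor. The difference after re-stimulation was 3.61 on the log2 scale (12.2-fold, 47th of 12341). The second Il22 probe passed the flag on the re-stimulated KO array alone, at 67.9 against 4.75 in WT cells, and gave at least 4.14-fold. On re-stimulation Il22 was at least 17.4-fold higher in cells labelled KO, and in WT cells the bound was 1.60-fold. With normexp and quantile normalization the genotype difference came to 1.98 on the log2 scale. The probes were matched to the Il22 transcript, and whether they also read Iltifb was not examined.

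Il9, the cytokine of Th9 cells, also made by mast cells, read 6.31, 9.86 and 14.1 on the WT day 5, KO day 5 and WT re-stimulated arrays, none well above background. It read 101.9 on the re-stimulated KO array. The bound after re-stimulation was 6.22-fold higher in the cells labelled KO, and the bound against day 5 was 7.48-fold. With normexp and quantile normalization the genotype difference came to 1.12 on the log2 scale.

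The IL-17 pair, neighbours on the chromosome, read differently over the arrays. Il17a, the Th17 cytokine that recruits neutrophils, read 3.44, 3.74 and 3.31 on the WT day 5, KO day 5 and WT re-stimulated arrays, none well above background. It read 70.2 on the re-stimulated KO array. The bound there was 4.29-fold against WT and 5.15-fold against day 5. With normexp correction, which shrinks dim signals, and quantile normalization, these came to 0.93 and 0.88 on the log2 scale, under 2-fold. Il17f, its close relative, read 22.1 and 14.8 on the WT and KO arrays of day 5, the latter not well above background, and 1220 and 1868 after re-stimulation. Both re-stimulated arrays lay far above the day 5 arrays. On day 5 the bound was 1.31-fold higher in WT cells, whose array alone passed the flag, so the filter fixed that direction. After re-stimulation the cells labelled KO were higher by 0.44 on the log2 scale (1.36-fold), under 2-fold. On re-stimulation Il17f was higher by 6.27 on the log2 scale in WT cells (77.0-fold) and at least 137-fold higher in cells labelled KO.

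**Figure D3:**
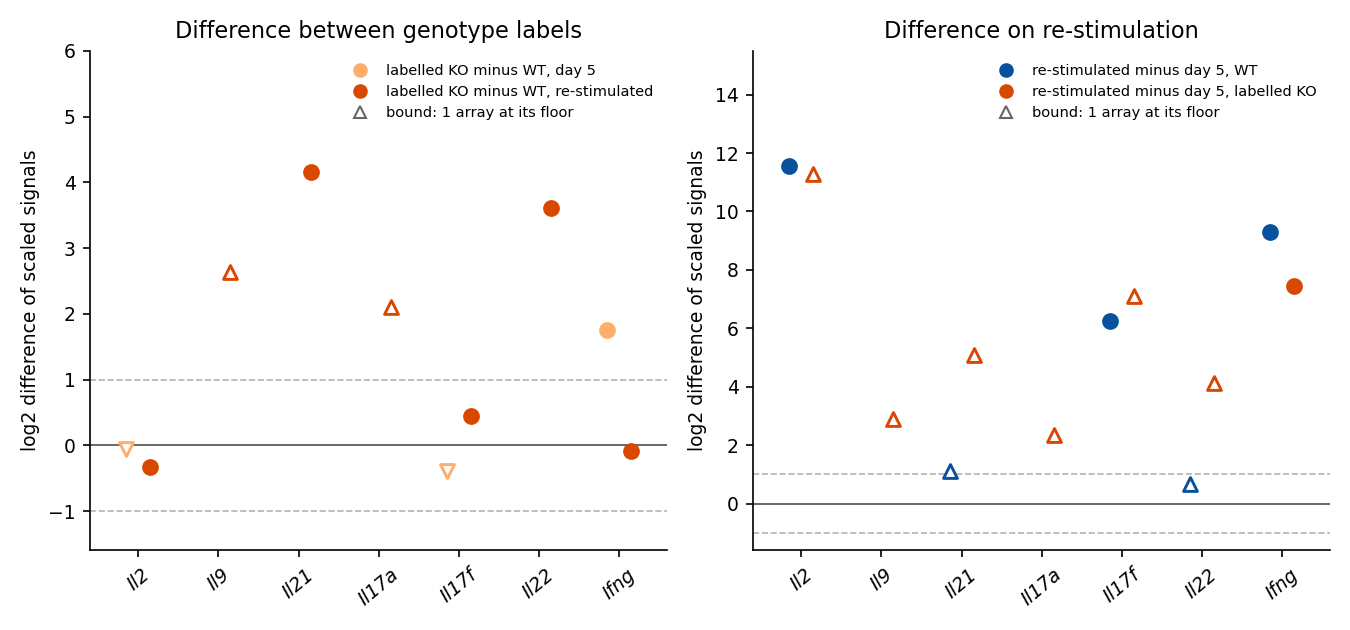
Log2 difference of scaled signals for each cytokine gene between genotype labels (left) and on re-stimulation (right), 1 array per condition. Filled points were measured on both arrays, open triangles are bounds with 1 array at its floor, dashed lines mark 2-fold and genes without a point could not be compared; Il9, Il21, Il17a and Il22 lie above 2 after re-stimulation in the left panel, and Il2, Il17f and Ifng lie within 0.5 of 0 there.

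On re-stimulation in WT cells 5 members could be compared and 4 were higher by at least 2-fold. Il21 and Il22 missed the flag on day 5 and entered through the re-stimulated array alone, so the filter fixed their direction, and Il2, Il17f and Ifng were measured on both arrays. Of 12244 genes 13.3% were higher and 13.7% lower. In cells labelled KO 7 members were higher by at least 2-fold, but 6 of them had missed the flag on day 5 and their direction was fixed in the same way. Ifng was the 1 member measured on both of these arrays. Of 12282 genes 12.5% were higher and 13.1% lower, shares from which nothing is read about the 6. These comparisons share arrays with the comparisons between genotypes.

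**Figure D4:**
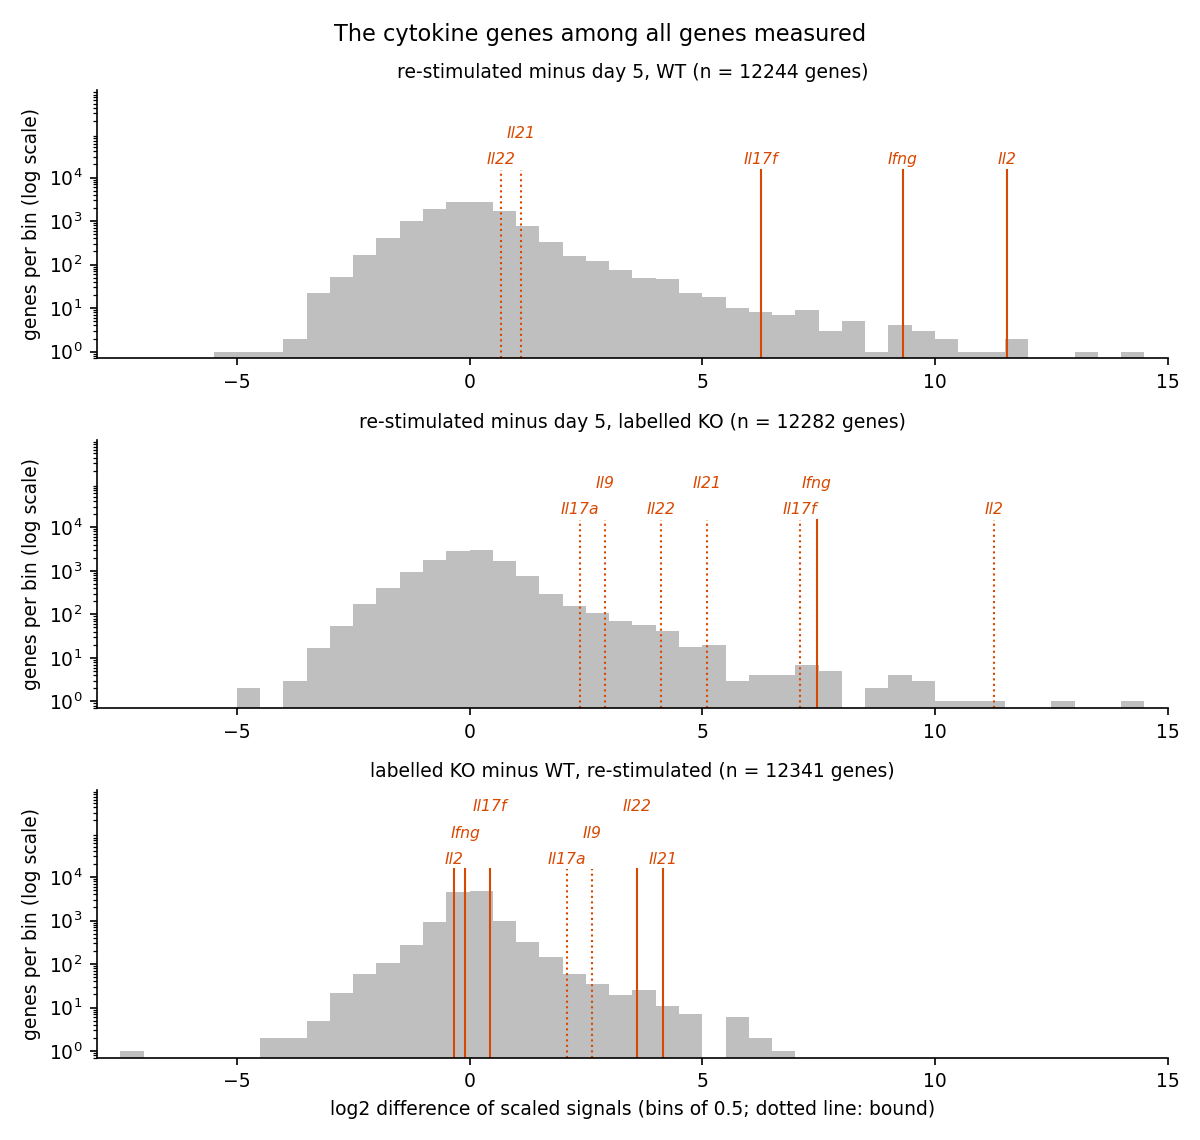
Histograms of the log2 difference of scaled signals over all genes measured (log count axis, bins of 0.5) on re-stimulation in WT cells, on re-stimulation in cells labelled KO and between genotype labels after re-stimulation, with lines at the cytokine genes, dotted for bounds. Il2 and Ifng lie at the far right on re-stimulation in both genotypes and near 0 between genotypes, where Il21 at 4.15 and Il22 at 3.61 lie in the right tail.

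Other cytokine genes set these differences in context. The Th2 cytokine genes Il4, Il5 and Il13 were higher by at least 2-fold in the cells labelled KO in both states, with medians of 2.81 on day 5 and 3.59 after re-stimulation, where of the members Ifng alone passed on day 5. Of 11 other T cell cytokine genes 4 of 10 compared were higher by at least 2-fold on day 5 (Il24, Il10, Ccl4 and Ccl3). After re-stimulation 2 of 11 were higher (Il10 by 5.85 and Il24 by 5.50). Over all genes 5.27% were higher by 2-fold on day 5 and 5.17% after re-stimulation. On day 5 Il10, Ccl3 and Il5 passed the flag on the KO array alone, so the filter fixed their direction there. Il3, a growth factor for mast cells and basophils, had one of the largest differences on re-stimulation, at least 14.11 on the log2 scale in both genotypes, with 0.16 between them. Among the relatives of the IL-17 and IL-22 genes 4 of 5 were on the array, and Il17d was higher on re-stimulation by at least 3.34 in WT cells and 3.37 in the other genotype, with 0.19 between them. Il3 and Il17d missed the flag on both day 5 arrays, so the filter fixed their direction on re-stimulation. Il17b and Il17c stayed below the background flag throughout.

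The transcription factors that direct these cytokines differed in several ways. Of 15 listed lineage regulators 13 could be compared on day 5. In the cells labelled KO 4 were higher by 2-fold, against 5.27% of all genes: Maf by 4.65, Hlx by at least 2.65, Ahr by 1.91 and Eomes by 1.61. Maf takes part in IL-4, IL-10 and IL-21 expression, Ahr in that of IL-22, and Hlx and Eomes in that of IFN-γ. After re-stimulation 4 of 15 were higher, against 5.17% of all genes, and 2 lower, against 3.86%. Hlx passed the flag on the KO arrays alone and Spi1 on the re-stimulated WT array alone, so the filter fixed their direction. Maf was higher by 4.10, Hlx by at least 3.45, Stat4, which carries the IL-12 signal in Th1 cells, was lower by 1.46, and Spi1, the Th9 factor PU.1, was lower by at least 1.57. Tbx21, which encodes T-bet, read 2049, 1796, 11605 and 10884 in the order WT day 5, KO day 5, WT re-stimulated and KO re-stimulated. Like Ifng after re-stimulation it stood within 2-fold between genotypes, at -0.18 and -0.27. The medians of the list were 0.49 on day 5 and -0.04 after re-stimulation, the latter turning sign with scaling to Cd3e (0.05). Bcl6, the factor of follicular helper cells, had differences on re-stimulation of 4.38 and 4.60 in the WT and KO genotypes.

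Among receptors for the cytokines that induce these fates, 10 genes were listed. On day 5 Il12rb1, a chain of the IL-12 and IL-23 receptors, was higher by 2.07 in the cells labelled KO. Il6ra, the IL-6 receptor, was lower there by 2.35. After re-stimulation 1 of 9 compared was higher by 2-fold, against 5.17% of all genes, and 2 were lower, against 3.86%. Il6ra was lower by at least 1.96, but passed the flag on the WT array alone, so the filter fixed that direction. Il1r1, the IL-1 receptor that promotes Th17 cells, read 7.19 in re-stimulated WT cells, not well above background, and 231.5 in re-stimulated cells labelled KO. It was at least 3.82 higher there, but only that array passed the flag, so the filter fixed its direction. Il18r1, a receptor for IL-18, an inducer of IFN-γ, gave -0.88 on day 5 and was lower by 1.04 after re-stimulation.

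Some genes ran over the arrays as a member did. By the root-mean-square distance of log2 values over the 4 arrays, each gene centred and raised to the floors, the nearest to Ifng among 10809 genes were Rgs16 (0.36), Csf2 (0.48) and Mpzl2 (0.53). Csf2, the gene of GM-CSF, read 343, 601, 65138 and 120690. The genes nearest to Il21 among 269 with the same arrays above background were Mmp13 (0.18), Tpbg (0.21) and Stfa2 (0.34), and those nearest to Il22 were Stfa2 (0.07), Mefv (0.23) and Tpbg (0.36). Because day 5 values were raised to the floor for all of these, their likeness rests on the re-stimulated arrays. Il17f had more distant neighbours, with Eml1 nearest at 0.84, and the gene nearest to Il2 among 87 was Il17f at 2.38, so no gene compared followed Il2 closely. Distances over 4 arrays are descriptions only.

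Some cell type markers differed with the genotype label in both states. Il9, Il21, Il17a and Il22 were not well above background on either day 5 array. Of 11 mast cell and basophil markers 8 were well above background on each KO array, against 3 and 2 on the WT arrays of day 5 and of re-stimulated cells. Their summed signals were 254 and 490 on the WT arrays and 1518 and 2144 on the KO arrays, and 5 of the markers, Cpa3, Mcpt8, Fcer1a, Cma1 and Gata2, passed the flag on both KO arrays and on neither WT array. Cpa3, a mast cell and basophil protease gene, read 339 and 195 on the KO arrays, and Mcpt8, a basophil protease gene, read 309 and 333. Of the others on the list, Mcpt4, Tpsb2 and Ms4a2 were below background on every array. Of 4 Y-linked genes 3 were well above background on both KO arrays and none on the WT arrays, with summed signals of 17.5 and 18.2 on the WT arrays and 1696 and 1458 on the KO arrays. Xist was well above background on every array, at 9524 and 5221 on the WT arrays and 4623 and 2585 on the KO arrays. It was lower by 1.04 and 1.19 on the KO arrays. All samples are labelled female, so the Y-linked genes go against the label of the KO arrays (the study's methods name both sexes for work in vitro), and sex and genotype cannot be told apart. The part of either in the cytokine differences was not tested.

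Markers of other cell types varied. Of the NK cell markers, which would mark another source of Ifng, Ncr1, Klra4 and Klrk1 were below background on all arrays. Klrb1c was well above background on every array. It read 337, 420, 161 and 158 in the order WT day 5, KO day 5, WT re-stimulated and KO re-stimulated. Its genotype difference was 0.32 on day 5. Klra8 was well above background on both KO arrays, at 21.8 and 24.1, and on neither WT array. The filter thus fixed the direction of its bounds, 0.54 and 0.56 on the log2 scale. Of the γδ T cell markers, which would mark another source of Il17a, Sox13 was below background on all arrays and Cd163l1 read 2740, 1174, 624 and 346, lower by 1.22 and 1.03 in the cells labelled KO. Cd8a was well above background on the re-stimulated KO array alone, at 63.0. B cell markers passed the flag for 2 of 5 genes on every array, with Cd79b brightest. Of 6 myeloid markers 3 passed on each day 5 array, and 1 and 2 on the re-stimulated WT and KO arrays, and Lyz2 and Itgam were below background on all of them. Adgre1 was higher in the cells labelled KO by 1.16 and 1.56 and Itgax by at least 2.13 and 1.77. Itgax passed the flag on the KO arrays alone, so the filter fixed its direction. The part of Adgre1 and Itgax in the cytokine differences was not tested either.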

How the data were processed

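Gene expression in 4 samples, 1 per condition, was read on 1 slide of one-colour arrays. The authors deposited an intensity for each spot, made by Feature Extraction 10.7.3.1 per the file headers (10.7 in the submitters' processing notes), with the background subtracted by that software and flags for spots well above background, saturated or uneven. The authors also deposited a log2 table, in which a value is log2 of the intensity after subtraction of the array's 75th percentile, to within 0.01 for at least 41001 of 41173 probes, with column medians from -4.09 to -3.77. It is not centred per gene.

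Spots flagged as uneven or as outliers (107 to 120 per array) were left out, spots of a probe were averaged as log2 values and the 75th percentile was subtracted. Through transcript accessions 27479 probes (66.7%) were named from a RefSeq table of GRCm38.p6, and its coordinates were not used for probes because the array was designed on another build. Of several probes of a gene, the one brightest on average (mean log2) was used. In a comparison a gene had to be well above background on at least 1 array, and the dimmer value was raised to its array's floor, so that such a difference is a bound. Ranks and medians over genes include bounds.

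The members and lists were chosen with earlier results of these data known. Besides the members, at most 4 genes of a list were named per comparison, those with the largest absolute difference, plus the Th2 cytokines, Bach2 and the genes nearest each member; values of a gene so named in other comparisons, and of single markers, were given after they were seen. The lists covered cytokine receptors, lineage regulators, receptors for inducing cytokines, IFN-γ target genes, IL-2 and STAT5 target genes, Th2 and other T cell cytokines, relatives of the IL-17 and IL-22 genes, and cell type markers. The alternatives were scaling to the median, quantile normalization, the 75th percentile of probes above background on all arrays, scaling to Cd3e and the log2 table. Others were the mean over probes, 2 other filters, keeping the spots left out and a 3-fold rule. Normexp correction of the spot medians, with an offset of 50 and followed by quantile normalization, was a further alternative. Reading the probe with the most spots was added after seeing the data. Python 3.11.15, numpy 2.4.6, pandas 2.3.3, matplotlib 3.10.9, R 4.3.3 and limma 3.58.1 were used, and the scripts were tested on simulated data. ChIP-seq was not analysed here, and single values of some listed genes are not reported here.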

Additional observations from a re-analysis of the deposited data

Results flagged for a closer look

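Il17f stood at -0.39 on the log2 scale between cells labelled KO and WT on day 5, a bound with the KO array at its floor, and at 0.44 after re-stimulation. It is listed because the sign differed between the states. On day 5 Il17f passed the flag on the WT array alone, so the filter fixed that sign and nothing is read from the change. The median over the IFN-γ target genes was 0.93 on day 5 and -0.36 after re-stimulation, and that over the receptors for inducing cytokines was 0.24 and -0.11. For these lists too the sign differed between the states. With 1 array per condition none of these differences between states was tested.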

How the results depend on the processing

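Over the alternatives, 153 of 238 member values stayed within the typical (median) spread of probes, 85 moved further and 0 of those past 2-fold changed sign. A bound could change sign solely with no filter and no floor, so for bounds this 0 was otherwise fixed in advance. Of 96 recomputed counts of members past the size rule 3 moved by over 1.5 times. With no filter and no floor 1 member, Il2, was lower on day 5. Where both arrays had to pass the background flag, 2 members, Il21 and Il22, were higher in cells labelled KO after re-stimulation, and 1, Ifng, was higher on re-stimulation in cells labelled KO, since this leaves fewer members to compare. The difference after re-stimulation ranged over the alternatives from 2.37 to 4.30 for Il21, 1.98 to 3.76 for Il22, 1.12 to 2.77 for Il9, 0.93 to 4.23 for Il17a and -0.12 to 0.32 for Ifng, and the day 5 difference of Ifng from 1.57 to 1.89. Scaling to the array median moved the median of all genes on re-stimulation to -0.30 in WT cells and -0.26 in cells labelled KO, scaling to Cd3e to 0.29 and 0.26, and no floor to 0.33 and 0.30. The share of higher genes among those past 2-fold on re-stimulation, 49.3% and 48.9%, became 29.1% and 30.8% with the median, 71.5% and 67.7% with Cd3e and 59.5% and 59.7% with no floor. No paired analysis was possible because each condition had 1 array. Signals near the floor limit Il9, Il17a, Il21 and Il22 in WT cells to bounds or to values just above background.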
